A study of Mus musculus with 27 samples.

Results

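Expression of 10 listed Notch genes was examined in mouse thyroid gland organoids (mTGOs) over days of culture and doses of photons. They are the receptors Notch1, Notch2 and Notch3, the ligands Jag1, Jag2 and Dll1, the targets Hes1, Hey1 and Nrarp, and the glycosyltransferase Lfng, and they make up 10 of the 50559 gene rows in the count table. Organoids of C57BL/6 mice aged 8 to 12 weeks were kept for 5 days and then given 0, 2, 4 or 7 Gy. The 27 libraries form 9 groups of 3: day 5 at 0 Gy, day 7 at 0, 2, 4 and 7 Gy, and day 11 at 0, 2, 4 and 7 Gy. All groups share the strain, the thyroid gland as source, Matrigel and DMEM/F12 medium with EGF, FGF2, Y27632 and B27, and each holds 1 library of the cultures mTG11, mTG12 and mTG14. They differ in day and dose, and the irradiated groups have no day 5 library.

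Notch receptors bind ligands on neighbouring cells, are cut in the membrane, and release an intracellular part that joins RBPJ on DNA. Sugars added by fringe enzymes alter the response of the receptors to Jagged and Delta ligands. In stratified epithelia the pathway takes part in the step from basal to suprabasal cells.

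The thyroid label was checked against 12 follicular markers. Of these, Tg reached at most 16.7 CPM, in 1 library of day 5, and Slc5a5, Tshr, Pax8 and Hhex had group means below 1.19 CPM, the highest detection limit of any library. Foxe1 had group means of 25.7 to 38.1 CPM and Nkx2-1 of 8.32 to 18.7 CPM. The summed level of the list averaged 60.9 CPM on day 5, 50.5 on day 7 and 257 on day 11 without irradiation, 46.0 to 52.5 in the irradiated groups of day 7 and 170 to 281 in those of day 11, with Foxe1 as the most abundant gene in the groups of days 5 and 7 and Duoxa2 in those of day 11. The basal list (4 genes, top Krt14 on day 5 and Krt5 later) summed to 13620, 9775 and 4601 CPM on days 5, 7 and 11 at 0 Gy, and to 4222 to 11332 CPM in irradiated groups. The epithelial list (5 genes, top Cdh1 on day 5, Krt19 on day 7 and Epcam on day 11 at 0 Gy) summed to 971, 2555 and 2206 CPM at 0 Gy and to 2109 to 2555 CPM after irradiation. Each gene of the basal and epithelial lists had counts in every group.

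Other lists marked further cell types. The endothelial list (7 genes, top Pecam1 after day 5) averaged 0.169 to 1.17 CPM, with 2 of its genes, Cldn5 and Emcn, at 0 in all libraries. The immune list (6 genes, top Cd68) averaged 12.2, 26.0 and 48.5 CPM on days 5, 7 and 11 at 0 Gy and 24.6 to 52.3 CPM after irradiation, with Cd3e at 0 throughout. Cd68 alone held 6.29, 18.7 and 44.8 CPM of these sums at 0 Gy, and 4 of the 6 genes had no counts on day 11 at 0 Gy. Day 11 against day 5 called 1 of 3 immune genes tested higher (median 0.03), so the rise of the sum was not shared by the list. The mural list (7 genes, top Des on days 5 and 7 and Acta2 on day 11) averaged 88.2, 33.7 and 41.9 CPM at 0 Gy and 40.0 to 95.3 CPM after irradiation, and its highest library, day 11 at 7 Gy, held 220 CPM. The multiciliated list (7 genes, top Rsph1 on days 5 and 7 and Foxj1 on day 11) averaged 3.29, 6.99 and 55.0 CPM at 0 Gy, 8.00 to 9.43 CPM in irradiated day 7 groups and 15.3 to 20.9 CPM in irradiated day 11 groups. The fibroblast list (8 genes, top Fbln1) summed to 95.5, 179 and 175 CPM in the day 5 libraries, to 98.6, 145 and 192 CPM on day 7 and to 50.0, 98.1 and 83.9 CPM on day 11 at 0 Gy, in the order mTG11, mTG12, mTG14, and averaged 115 to 144 CPM after irradiation. Apart from fits with a fibroblast score as a covariate, their part was not tested.

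All 10 Notch genes had counts in each of the 27 libraries. Mean levels over the libraries were 156 CPM for Notch1, 26.6 for Notch2, 42.4 for Notch3, 167 for Jag1, 62.1 for Jag2, 6.94 for Dll1, 127 for Hes1, 8.02 for Hey1, 52.8 for Nrarp and 12.7 CPM for Lfng. The lowest count of any of them in a library was 8, for Hey1. Overlaps of groups and counts of cultures are given on CPM from library totals unless TMM-scaled values are named. Jag1 carried fractional counts in 14 of 27 libraries, Notch1 in 9, Jag2 in 4, Hes1 in 2, and Notch3 and Nrarp in 1 each; the rule behind fractional values is not given in the sources used here. Dll1 overlaps Fam120b, which lies on the opposite strand and averaged 27.1 CPM, and reads of the 2 genes cannot be told apart where they overlap because the counting strand is not given in the sources used here.

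**Figure D1:**
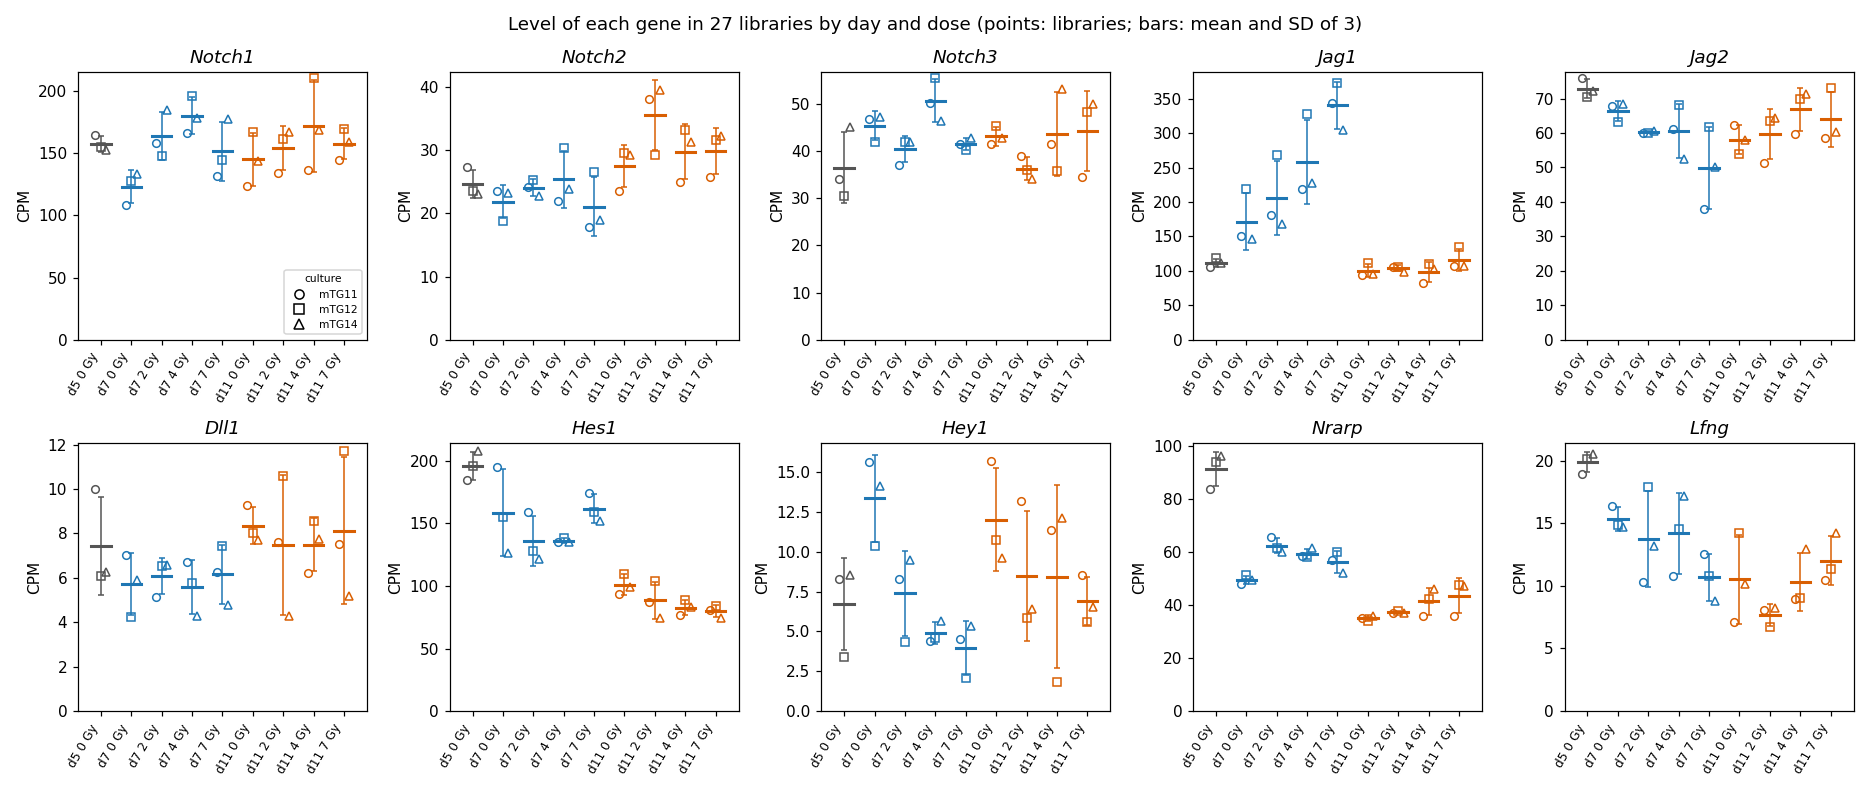
Levels of the 10 Notch genes in each of the 27 libraries, in CPM, by day and dose. Horizontal bars give the mean of 3 libraries with its SD.

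Days were first compared without irradiation. Day 7 against day 5 gave 4 of 10 members past an adjusted p of 0.05 (edgeR), 3 higher (Notch3, Jag1, Hey1) and 1 lower (Nrarp), where 21.6% of the 18442 genes tested were called. In that step 5 of 5 epithelial markers were called higher (median 1.42) and 9 of 10 proliferation genes lower (median -0.88). Day 11 against day 7 gave 3 of 10, all lower (Jag1, Hes1, Nrarp), where 21.2% of genes were called. In that step 3 of 8 fibroblast markers (median -1.97) and 10 of 10 proliferation genes (median -1.93) were called lower and 7 of 7 multiciliated markers higher (median 3.65). It also called 8 of 10 basal genes (median -0.76) and 9 of 15 differentiation genes (median -1.02) lower. Over the whole course, day 11 against day 5, it was 5 of 10, with Notch3 and Hey1 higher and Hes1, Nrarp and Lfng lower, where 41.3% of genes were called. These 3 comparisons share libraries and are not independent. Of 12 follicular markers 7 had enough counts to be tested, and the 3 comparisons called 2, 3 and 4 of them higher, in the order given. Duoxa2 alone averaged 0.337, 3.83 and 136 CPM on days 5, 7 and 11 at 0 Gy, where the list summed to 60.9, 50.5 and 257 CPM. Without TMM factors the median of all genes moved by -0.14 (log2) in day 7 against day 5 and in day 11 against day 5, the share of called genes that rose went from 55.5% to 35.9% and from 51.4% to 39.9%, and the calls of Notch3 in both comparisons and of Hey1 in the longer one were lost, while Notch1 in the first and Jag2 in the second were called lower. The count for day 7 against day 5 dropped to 2 without the day 5 mTG12, the day 7 mTG11 or the day 7 mTG14 library. The count for day 11 against day 5 dropped to 3 without the day 5 mTG12 or the day 11 mTG11 library, to 3 with all 27 libraries in 1 fit and to 2 with the fibroblast score as a covariate. The numbers of all genes called in these alternative fits are not given here. In day 11 against day 5, 5 of 8 fibroblast markers (median -2.20) and 4 of 6 mural markers tested were called lower. Of the multiciliated markers, 7 of 7 were called higher. Apart from the fit with the fibroblast score, their part was not tested. Whether a lower level reflects fewer cells with the transcript or less RNA per cell cannot be told apart in bulk libraries.

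Doses were compared within each day. At day 7, 2 Gy gave 0 members by edgeR, where 0.124% of 19346 genes were called, and 0 by DESeq2. At an unadjusted p below 0.05 (edgeR) there were 3 (Notch1, Hey1 and Nrarp). Here and below, shares of all genes are at the adjusted threshold. The share of all genes at an unadjusted p was not counted, so unadjusted counts have no background to be set against. At 4 Gy 1 member was called, Hey1, where 1.63% of genes were called. That single call was lost without the day 7 mTG11 or mTG14 library at 0 Gy or any of the 3 libraries at 4 Gy. With the culture as a block there were 3 (Hey1, Notch1 and Jag1), where 1009 of 19346 genes were called. At 7 Gy 2 members were called, Jag1 higher and Hey1 lower, where 6.95% of genes were called. The trend over the 4 doses at day 7 called the same 2 genes, where 8.62% of genes were called. The dose comparisons of a day share their 0 Gy libraries.

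At day 11 no member passed the threshold at any dose with edgeR. Shares of all genes given for this day are at the adjusted threshold of the main fits and are no background for the unadjusted counts. The count at 2 Gy was 0, with 1 at an unadjusted p below 0.05 (Notch2) and 0 by DESeq2, where 0% of 19901 genes were called. At 4 Gy it was 0, with 1 unadjusted (Hes1) and 0 by DESeq2, where 0.00502% of genes were called. At 7 Gy it was 0, with 2 unadjusted (Hes1 and Nrarp), 0 by DESeq2 and 1 with the culture as a block, where 1.52% of genes were called. The block called 1297 of 19901 genes there. The day 11 dose trend gave 0 as well, with 2 unadjusted (Hes1 and Nrarp), 0 by DESeq2 and 1 with the block, where 2.51% of genes were called. For the trend the block called 1352 of 19901 genes.

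Between day 7 and day 11, irradiated mTGOs also changed. At 2 Gy 5 of 10 members were called, Notch2 higher and Jag1, Hes1, Nrarp and Lfng lower, where 17.2% of 21928 genes were called. At 4 Gy 3 were called, all lower (Jag1, Hes1, Nrarp), where 17.1% of genes were called. At 7 Gy 4 were called, Notch2 higher and Jag1, Hes1 and Nrarp lower, where 12.3% of genes were called, and this count dropped to 2 without the day 7 mTG11 library at 7 Gy. At 2 and 4 Gy this step also called 10 of 10 proliferation genes and 8 of 10 basal genes lower. It called 2 of 7 multiciliated markers higher at 2 Gy and 2 of 6 mural markers tested lower at 4 Gy. At 7 Gy it called 7 of 10 basal genes lower and 1 of 10 proliferation genes higher. Of 10 follicular markers tested, 4, 3 and 2 were called higher at 2, 4 and 7 Gy. The part of these lists was not tested. As an interaction of dose and day, the effect of 7 Gy was called as different for 0 members by edgeR, where 3.02% of genes were called. It was called for 1 by DESeq2 and 1 with the block (Jag1 in both). At an unadjusted p below 0.05 (edgeR) there were 3 (Jag1, Jag2 and Lfng). Without the day 7 mTG12 library at 0 Gy, or without the day 7 mTG12 library at 7 Gy, the edgeR count of called members was 1. With the block 1156 of 21928 genes were called in the interaction.

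**Figure D2:**
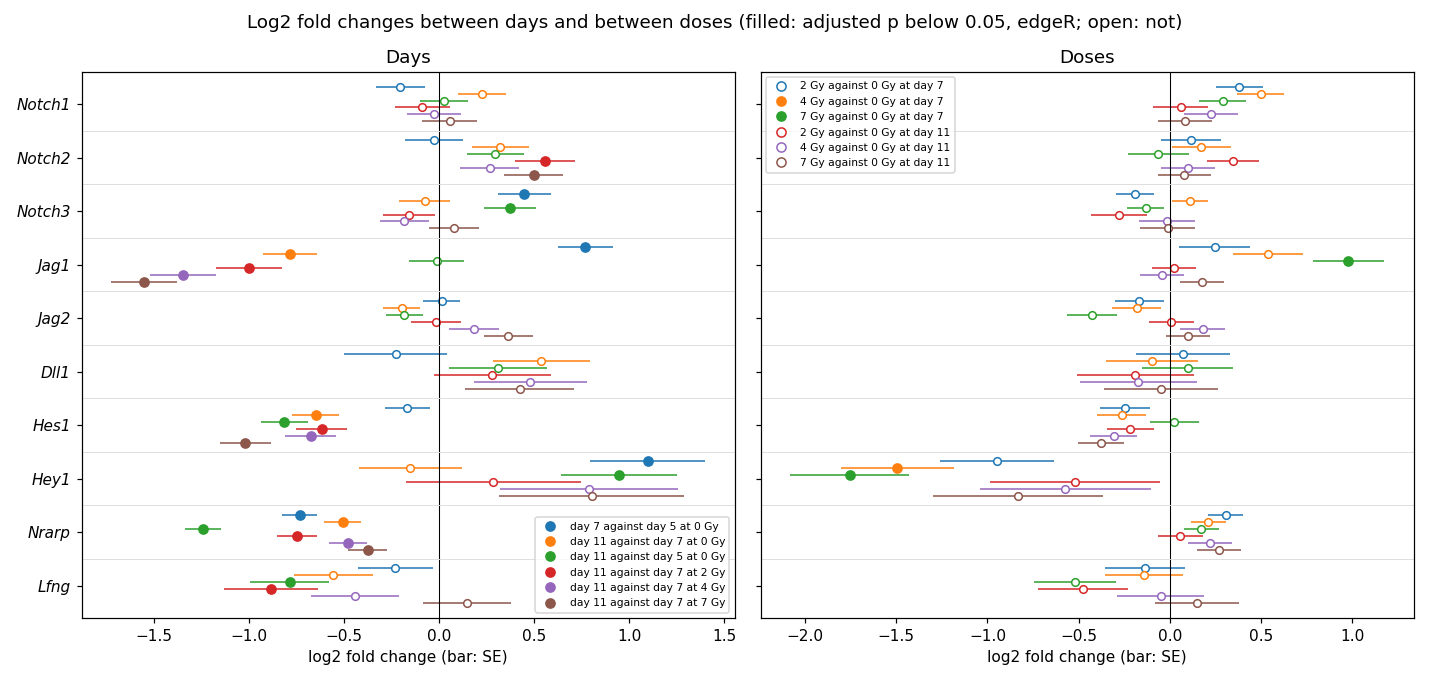
Log2 fold changes of the 10 Notch genes between days (left) and between doses (right), with standard errors. Filled points passed an adjusted p of 0.05 in edgeR.

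Notch1 encodes a receptor that acts at the cell surface (chr2:26347915-26406675, minus strand, 34 exons, GRCm39). On day 7 it held 108, 128 and 133 CPM at 0 Gy and 166, 196 and 178 CPM at 4 Gy, in the order mTG11, mTG12, mTG14. The groups did not overlap and the level was higher at 4 Gy in 3 of 3 cultures. The change of 0.50 (log2, SE 0.13) had an adjusted p of 0.073, and 0.00401 with the culture as a block, over a range of 0.00145 to 0.0839 in the alternatives tried. At 2 and 7 Gy on day 7 the changes were 0.38 and 0.29 with adjusted p of 0.419 and 0.215, and the dose trend was 0.04 per Gy (adjusted p 0.39). Day 7 against day 5 gave -0.20 (SE 0.13, adjusted p 0.298), and without TMM factors -0.35, with an adjusted p of 0.0495, within a range of 0.0495 to 0.328. Its group means ran from 123 CPM (day 7, 0 Gy) through 145 (day 11, 0 Gy) and 157 (day 5) to 180 CPM (day 7, 4 Gy), and libraries of neighbouring groups overlapped throughout the full order of the 9 groups.

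Notch2, a receptor with broad expression, had its lowest levels on day 7 and its highest on day 11 in irradiated mTGOs (chr3:97920800-98057677, plus strand, 34 exons). At 2 Gy it held 24.1, 25.3 and 22.6 CPM on day 7 and 38.0, 29.2 and 39.4 CPM on day 11. All 3 libraries of day 11 were above those of day 7. The change was 0.56 (SE 0.16, adjusted p 0.0149), and the call was lost without the day 11 mTG11 (0.0519) or mTG14 (0.0586) library at 2 Gy. At 7 Gy the values were 17.8, 26.5 and 18.9 CPM on day 7 and 25.7, 31.5 and 32.2 CPM on day 11. The groups overlapped slightly, though not with TMM-scaled values, and the level was higher on day 11 in 3 of 3 cultures. The change was 0.50 (SE 0.16, adjusted p 0.0367), called in 7 of 9 alternatives over a range of 0.0173 to 0.0722, and the adjusted p was 0.0798 without the day 11 mTG12, 0.0933 without the day 11 mTG14, 0.142 without the day 7 mTG11 and 0.125 without the day 7 mTG14 library. The same step gave 0.27 at 4 Gy (adjusted p 0.262) and 0.32 at 0 Gy (adjusted p 0.15), and whether it differed between 0 and 7 Gy was tested as an interaction (0.17, SE 0.22, adjusted p 0.807). Group means ran from 21.1 CPM (day 7, 7 Gy) to 35.6 CPM (day 11, 2 Gy), and neighbours in the order of the 9 groups overlapped.

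Notch3, a receptor also found in mural cells, rose slightly from day 5 (chr17:32339794-32385893, minus strand, 33 exons). The libraries held 34.1, 30.4 and 45.0 CPM on day 5, 46.9, 41.9 and 47.3 CPM on day 7 and 41.4, 45.3 and 42.8 CPM on day 11 at 0 Gy. The day 5 mTG14 library lay within the range of the later days, though with TMM-scaled values day 5 lay below both. Day 7 against day 5 gave 0.45 (SE 0.14, adjusted p 0.0355, higher in 3 of 3 cultures). It was called in 6 of 9 alternatives, over a range of 0.0103 to 0.144. That call was lost without the day 5 mTG11 (0.105), day 5 mTG12 (0.129), day 7 mTG11 (0.0752) or day 7 mTG14 (0.115) library. Over days 5 to 11 the change was 0.37 (SE 0.14, adjusted p 0.0469, higher in 2 of 3 cultures). It was called in 4 of 9 alternatives, over a range of 0.0215 to 0.213. That call was lost without the day 11 mTG11 (0.0594), mTG12 (0.106) or mTG14 (0.107) library or the day 5 mTG11 (0.126) or mTG12 (0.18) library. Dose changes of Notch3 lay between -0.28 and 0.11, with adjusted p of 0.5 to 0.998. Group means ran from 36.3 CPM (day 11, 2 Gy) to 50.7 CPM (day 7, 4 Gy), and neighbours in the order of the 9 groups overlapped.

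Jag1 encodes a Jagged ligand and was called both between days and between doses (chr2:136923373-136958693, minus strand, 26 exons). Without irradiation the libraries held 106, 118 and 111 CPM on day 5, 150, 219 and 146 CPM on day 7, and 94.3, 111 and 94.9 CPM on day 11, in the order mTG11, mTG12, mTG14. Every day 7 library lay above every library of days 5 and 11, which overlapped with each other. Day 7 was 1.71-fold above day 5 (log2 0.77, SE 0.14, adjusted p 0.00272, higher in 3 of 3 cultures). From day 7 to day 11 the level fell by 0.78 (log2, SE 0.14, adjusted p 0.00209, lower in 3 of 3 cultures). Between days 5 and 11 it was -0.01 (SE 0.15, adjusted p 0.957). The 2 calls were kept without any 1 library and in all 9 alternatives.

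With dose, Jag1 rose at day 7. The libraries held 182, 268 and 169 CPM at 2 Gy, 219, 328 and 227 CPM at 4 Gy and 343, 373 and 305 CPM at 7 Gy. At 7 Gy all libraries were above those at 0 Gy, while at 2 Gy the groups overlapped. The lowest library at 4 Gy and the highest at 0 Gy were level at 219 CPM, and with TMM-scaled values these groups overlapped. In each of the 3 cultures the level was higher at each dose than at the dose below. The change at 7 Gy was 1.97-fold (log2 0.98, SE 0.19, adjusted p 0.00763), kept without any 1 library and in all 9 alternatives. At 4 Gy it was 0.54 (SE 0.19, adjusted p 0.204, higher in 3 of 3 cultures), and 0.00424 with the culture as a block, over a range of 0.000174 to 0.208. At 2 Gy it was 0.25 (SE 0.19, adjusted p 0.802, higher in 3 of 3 cultures). The trend was 0.14 per Gy (log2, SE 0.02, adjusted p 0.00191) and stayed past the threshold in all 12 fits without 1 library.

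On day 11 Jag1 was called at none of the doses. It held 106, 106 and 98.6 CPM at 2 Gy, 81.9, 110 and 103 CPM at 4 Gy and 107, 134 and 107 CPM at 7 Gy. Each of these groups overlapped with 0 Gy of the same day. The change at 7 Gy was 0.18 (SE 0.12, adjusted p 0.543, higher in 3 of 3 cultures), and those at 2 and 4 Gy were 0.02 and -0.05 (adjusted p 0.999 and 0.969). The step from day 7 to day 11 fell by 1.00 at 2 Gy (adjusted p 0.000222), by 1.35 at 4 Gy (1.03e-05) and by 1.55 at 7 Gy (3.19e-06), with 3 of 3 cultures lower at each dose. As an interaction, the response to 7 Gy on day 11 differed from that on day 7 by -0.77 (log2, SE 0.24, adjusted p 0.0949), which did not pass the threshold. With the culture as a block the adjusted p was 0.00129 and with DESeq2 0.0368, over a range of 0.000446 to 0.121, and without the day 7 mTG12 library at 0 Gy it was 0.0243. The order of group means ran from 98.5 CPM (day 11, 4 Gy) over 100 (day 11, 0 Gy), 104 (day 11, 2 Gy), 112 (day 5) and 116 (day 11, 7 Gy) to 172, 206, 258 and 340 CPM (day 7 at 0, 2, 4 and 7 Gy). Only between 116 and 172 CPM did neighbours in this order not overlap, and with TMM-scaled values day 5 and day 11 at 7 Gy did not either.

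Jag2, the other Jagged ligand (chr12:112871421-112893437, minus strand, 26 exons), passed the threshold in none of the 15 comparisons in the main edgeR fits, with 4 at an unadjusted p below 0.05 and 1 by DESeq2 (the dose trend at day 7). On day 7 its libraries held 67.7, 63.1 and 68.4 CPM at 0 Gy and 37.8, 61.7 and 50.0 CPM at 7 Gy. All 3 libraries at 7 Gy lay below those at 0 Gy, although the mTG12 library was close to them. The change was -0.43 (log2, SE 0.14, adjusted p 0.0768, lower in 3 of 3 cultures), with 0.0343 when the culture was a block, over a range of 0.0198 to 0.132. Without the day 7 mTG12 library at 7 Gy the adjusted p was 0.0288. The dose trend at day 7 was -0.06 per Gy (SE 0.02, adjusted p 0.0573), 0.0337 with the block over a range of 0.0337 to 0.109, and 0.0261 without the same library. On day 11 at 7 Gy it held 58.5, 73.1 and 60.4 CPM. From day 7 to day 11 at 7 Gy Jag2 changed by 0.36 (SE 0.13, adjusted p 0.0694, higher in 3 of 3 cultures), with 0.031 for the block over a range of 0.031 to 0.175, and 0.0202 without the day 7 mTG12 library at 7 Gy. The interaction was 0.56 (SE 0.18, adjusted p 0.115), and 0.0474 without that library. Over days at 0 Gy the changes of Jag2 were 0.01, -0.20 and -0.18, with adjusted p of 0.157 to 0.938. Without TMM factors Jag2 was called lower in day 11 against day 5. Its group means ran from 49.8 CPM (day 7, 7 Gy) to 72.8 CPM (day 5), and neighbours in the order of the 9 groups overlapped.

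Dll1 encodes a Delta ligand and was called in 0 of 15 comparisons by edgeR, with 0 at an unadjusted p below 0.05 and 0 by DESeq2 (chr17:15587276-15597134, minus strand, 11 exons). Its group means lay between 5.60 CPM (day 7, 4 Gy) and 8.34 CPM (day 11, 0 Gy), and single libraries between 4.24 and 11.7 CPM. The largest change in size was 0.54, from day 7 to day 11 at 0 Gy (SE 0.26, adjusted p 0.162, higher in 3 of 3 cultures). Neighbouring groups in the order of means overlapped throughout.

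Hes1 encodes a transcriptional repressor and a target of the pathway (chr16:29882134-29886643, plus strand, 4 exons). At 0 Gy the libraries held 185, 196 and 208 CPM on day 5, 195, 155 and 126 CPM on day 7 and 93.6, 110 and 99.5 CPM on day 11. Days 5 and 7 overlapped through the day 7 mTG11 library, and every day 11 library was below both. Between days 5 and 11 Hes1 fell by 0.81 (log2, SE 0.12, adjusted p 0.000219, lower in 3 of 3 cultures). From day 7 to day 11 it fell by 0.65 (SE 0.12, adjusted p 0.00258, lower in 3 of 3 cultures), and day 7 against day 5 gave -0.17 (SE 0.12, adjusted p 0.375). Both calls were kept without any 1 library and in all 9 alternatives.

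In irradiated mTGOs the late fall of Hes1 recurred. At 7 Gy it held 174, 159 and 152 CPM on day 7 and 80.5, 84.0 and 74.6 CPM on day 11. The 2 days did not overlap. The change was -1.02 (log2, SE 0.13, adjusted p 2.13e-05), beside -0.62 at 2 Gy (adjusted p 0.00222) and -0.68 at 4 Gy (adjusted p 0.00104), with 3 of 3 cultures lower each time. On day 11 alone, 7 Gy against 0 Gy gave -0.38 (SE 0.13, adjusted p 0.172, lower in 3 of 3 cultures) and 0.0374 with the culture as a block, over a range of 0.0374 to 0.209. The day 11 dose trend was -0.05 per Gy (SE 0.02, adjusted p 0.12), and 0.0392 with the block, over a range of 0.0392 to 0.174. On day 7, 7 Gy gave 0.02 (SE 0.13, adjusted p 0.939), and the difference between the days was -0.37 (SE 0.19, adjusted p 0.393). The order of group means ran from 79.7 (7 Gy), 82.7 (4 Gy), 88.6 (2 Gy) and 101 CPM (0 Gy) on day 11 to the day 7 groups between 136 and 162 CPM and to 196 CPM on day 5. Day 11 did not overlap with the other days, and within day 11 neighbours overlapped.

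Hey1 encodes a related repressor and target (chr3:8726956-8732385, minus strand, 5 exons). Without irradiation it held 8.27, 3.42 and 8.55 CPM on day 5, 15.6, 10.3 and 14.2 CPM on day 7 and 15.7, 10.7 and 9.62 CPM on day 11. Days 7 and 11 overlapped with each other, and both lay above day 5. Day 7 was 2.14-fold above day 5 (log2 1.10, SE 0.30, adjusted p 0.0218, higher in 3 of 3 cultures), over a range of 0.000149 to 0.0972. The call was lost without the day 5 mTG12 (0.0641), day 7 mTG11 (0.0686) or day 7 mTG14 (0.0685) library. Day 11 against day 5 gave 0.95 (SE 0.31, adjusted p 0.0258, higher in 3 of 3 cultures), over a range of 0.000969 to 0.316, the upper end of which came with the fibroblast score as a covariate. That call was lost without the day 11 mTG11 (0.114) or the day 5 mTG12 (0.0836) library.

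At day 7 Hey1 was lower after irradiation. Its libraries held 8.30, 4.36 and 9.49 CPM at 2 Gy, 4.37, 4.59 and 5.66 CPM at 4 Gy and 4.51, 2.06 and 5.32 CPM at 7 Gy. At each dose all 3 libraries were below those at 0 Gy, and the 4 and 7 Gy groups overlapped. The log2 change was -1.75 at 7 Gy (SE 0.33, adjusted p 0.00526, 3.37-fold lower, lower in 3 of 3 cultures), kept without any 1 library and in all 9 alternatives. At 4 Gy it was -1.49 (SE 0.31, adjusted p 0.0261, lower in 3 of 3 cultures), over a range of 8.92e-07 to 0.0956. Without the day 7 mTG11 (0.109) or mTG14 (0.0935) library at 0 Gy, or the mTG11 (0.0971), mTG12 (0.139) or mTG14 (0.0508) library at 4 Gy, that call was lost. At 2 Gy it was -0.95 (SE 0.31, adjusted p 0.402, lower in 3 of 3 cultures). The trend of -0.26 per Gy (SE 0.05, adjusted p 0.00254) was kept in all 12 fits without 1 library.

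On day 11 the spread of Hey1 between cultures was wide. It held 13.2, 5.85 and 6.39 CPM at 2 Gy, 11.3, 1.80 and 12.1 CPM at 4 Gy and 8.56, 5.58 and 6.55 CPM at 7 Gy. Only the 7 Gy group lay wholly below 0 Gy. The change at 7 Gy was -0.83 (SE 0.47, adjusted p 0.441, lower in 3 of 3 cultures), and the interaction with day was 0.95 (SE 0.63, adjusted p 0.554), so a difference between the days was not shown. The step from day 7 to day 11 at 4 Gy was 0.79 (SE 0.47, adjusted p 0.28, higher in 2 of 3 cultures), and 0.0159 without the day 11 mTG12 library. Group means ran from 3.96 CPM (day 7, 7 Gy) and 4.87 (day 7, 4 Gy) over 6.75 (day 5) to 12.0 (day 11, 0 Gy) and 13.4 CPM (day 7, 0 Gy), and libraries of neighbouring groups overlapped in the full order of the 9 groups.

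Nrarp encodes an ankyrin repeat protein that is induced by Notch and dampens it (chr2:25070770-25073351, plus strand, 1 exon). Without irradiation it held 83.8, 93.9 and 96.1 CPM on day 5, 47.9, 51.2 and 49.4 CPM on day 7 and 35.0, 33.8 and 36.0 CPM on day 11. No library of one day overlapped with another day. Day 7 fell below day 5 by 0.73 (log2, SE 0.09, adjusted p 0.000231), day 11 below day 7 by 0.51 (SE 0.10, adjusted p 0.00291) and day 11 below day 5 by 1.24 (SE 0.10, adjusted p 1.07e-06), with 3 of 3 cultures lower in each. None of the 3 calls was lost without 1 library. The middle one reached 0.0557 with the fibroblast score as a covariate, over a range of 0.000827 to 0.0557.

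After irradiation, Nrarp fell from day 7 to day 11 as well. At 7 Gy it held 56.8, 59.9 and 51.9 CPM on day 7 and 35.8, 47.5 and 47.0 CPM on day 11. The days did not overlap. The change was -0.38 (SE 0.10, adjusted p 0.0154, lower in 3 of 3 cultures), over a range of 0.00843 to 0.0807, and it was lost without the day 11 mTG11 (0.166), the day 7 mTG11 (0.0754) or the day 7 mTG12 (0.0728) library at 7 Gy. At 2 and 4 Gy the changes were -0.75 (adjusted p 1.61e-05) and -0.48 (adjusted p 0.00197), with 3 of 3 cultures lower. Within a day, dose changes of Nrarp lay between 0.06 and 0.30, with adjusted p of 0.311 to 0.999. Means ran from 34.9 CPM (day 11, 0 Gy) over 37.2, 41.4 and 43.4 CPM (day 11 at 2, 4 and 7 Gy) and 49.5 CPM (day 7, 0 Gy) to 56.2, 59.3 and 62.4 CPM (day 7 at 7, 4 and 2 Gy) and 91.2 CPM (day 5). Neighbours overlapped among the 3 irradiated groups of each day and were separate elsewhere in this order, except that day 11 at 0 and 2 Gy overlapped with TMM-scaled values.

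Lfng encodes a fringe glycosyltransferase (chr5:140593075-140601300, plus strand, 8 exons). At 0 Gy it held 19.0, 20.1 and 20.5 CPM on day 5, 16.4, 14.8 and 14.7 CPM on day 7 and 7.14, 14.2 and 10.2 CPM on day 11. Each day lay below the one before without overlap. From day 5 to day 11 Lfng fell by 0.78 (log2, SE 0.21, adjusted p 0.00929, lower in 3 of 3 cultures), over a range of 0.00119 to 0.158, the upper end of which came with the fibroblast score as a covariate. Day 11 against day 7 gave -0.55 (SE 0.21, adjusted p 0.0785, lower in 3 of 3 cultures), and 0.0139 without the day 11 mTG12 library. Day 7 against day 5 gave -0.23 (SE 0.20, adjusted p 0.461).

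In irradiated mTGOs the fall of Lfng was seen at 2 Gy. The libraries held 10.3, 17.9 and 13.1 CPM on day 7 and 8.06, 6.69 and 8.26 CPM on day 11 at this dose. The 2 days did not overlap. The change was -0.88 (SE 0.25, adjusted p 0.015, lower in 3 of 3 cultures), and it was lost without the day 7 mTG12 (0.202) or the day 11 mTG12 (0.0609) library. At 4 Gy it was -0.44 (adjusted p 0.212) and at 7 Gy 0.15 (adjusted p 0.753). Against 0 Gy, 7 Gy gave -0.52 on day 7 (adjusted p 0.193) and 0.15 on day 11 (adjusted p 0.843), and the interaction was 0.70 (SE 0.33, adjusted p 0.337). Group means ran from 7.67 CPM (day 11, 2 Gy) over 10.3, 10.5, 10.7 and 12.0 CPM (day 11 at 4 Gy and 0 Gy, day 7 at 7 Gy, day 11 at 7 Gy) to 13.8, 14.2 and 15.3 CPM (day 7 at 2, 4 and 0 Gy) and 19.9 CPM (day 5). In that order the lowest and the highest group stood apart from their neighbours, and the rest overlapped.

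Other genes of the pathway were listed for context (48 genes, 42 tested in the day fits). Day 11 against day 5 called 17 of them, where 41.3% of all genes were called. The count was 20 without TMM factors and 14 by DESeq2, for which the share of all genes is not given here. The median of the list went from 0.11 to -0.03 without TMM factors. Among the higher were Notch4, Mib2 (1.69), Psenen (0.64), Rbpj (1.19), Maml2 (0.89), Snw1 (0.43), Numbl (0.98), Dtx1, Dtx3 (2.09) and Dtx3l (1.89). Among the lower were Dlk2 (-0.56), Neurl1a (-1.62), Neurl1b (-2.34), Rfng (-1.30), Furin (-0.39) and Ctbp1 (-0.50). The call of Dlk2 was lost without the day 11 mTG11 (0.052), day 11 mTG12 (0.0998) or day 5 mTG14 (0.154) library, and that of Neurl1a without the day 11 mTG11 (0.051), day 11 mTG14 (0.0574), day 5 mTG12 (0.0526) or day 5 mTG14 (0.0725) library. Notch4 held 5 counts over the 3 libraries of day 5, below the detection limit in each, so no fold is given. Dtx1 averaged 0.0634 CPM on day 5 and 0.767 CPM on day 11, and no fold is given for it either, and its call was lost without the day 5 mTG11 (0.0543), mTG12 (0.0534) or mTG14 (0.0655) library. Without the day 11 mTG11 or mTG12 library it held too few counts to be tested. Hes5 and Hey2 had no counts in any library.

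At 7 Gy on day 7, 3 of the 42 other genes tested were called, where 6.95% of all genes were called. With the culture as a block it was 5, where 2193 of 19346 genes were called. Without the block, Poglut1 rose by 1.02, Dlk2 changed by -1.54 and Neurl1b by -1.66 (log2). The call of Neurl1b was lost without the day 7 mTG11 (0.145) or mTG14 (0.0535) library at 0 Gy or the mTG11 (0.081) or mTG12 (0.12) library at 7 Gy. On day 11 the count at 7 Gy was 0 by edgeR, where 1.52% of all genes were called, with 6 at an unadjusted p below 0.05 and 1 by DESeq2. With the block it was 2, where 1297 of 19901 genes were called.

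Epithelial state was described with 3 further lists. Day 11 against day 5 called 8 of 10 basal genes lower and 1 higher (median -0.98), 10 of 15 differentiation genes lower and 2 higher (median -1.42), and 10 of 10 proliferation genes lower (median -2.80), where 41.3% of all genes were called. The differentiation list was mixed in day 7 against day 5, with 3 called higher and 4 lower (median -0.32), where 21.6% of all genes were called. Mean levels on days 5 and 7 at 0 Gy were 705 and 1738 CPM for Krt4, 3883 and 4883 CPM for Krt13 and 40.1 and 17.4 CPM for Krt10. The basal list summed to 19137, 12932 and 6897 CPM on days 5, 7 and 11 at 0 Gy (top Krt14 on day 5 and Krt5 later), the differentiation list to 15344, 13390 and 6971 CPM (top Krt6a on day 5 and Krt13 on days 7 and 11) and the proliferation list to 1091, 547 and 163 CPM (top Top2a). In irradiated groups the sums were 13975 to 15982, 12492 to 14218 and 306 to 546 CPM on day 7 and 6622 to 8333, 6856 to 9004 and 165 to 345 CPM on day 11. On day 7 the proliferation sum was lowest at 7 Gy (306 CPM), and on day 11 it was highest there (345 CPM). Against 0 Gy, 7 Gy called 5 of 10 proliferation genes lower on day 7 (median -0.76), where 6.95% of all genes were called, and 8 of 10 higher on day 11 (median 1.17), where 1.52% were called. The interaction called 10 of 10 higher (median 1.96), where 3.02% were called, and day 11 against day 7 called 10 of 10 lower at 2 Gy (median -1.91) and at 4 Gy (median -1.25) but 1 higher and 0 lower at 7 Gy (median -0.05). The same step called 8, 8 and 7 of 10 basal genes and 9, 7 and 7 of 15 differentiation genes lower at 2, 4 and 7 Gy, with 1 differentiation gene higher at 7 Gy, where 17.2%, 17.1% and 12.3% of all genes were called. All genes of the 3 lists had counts in every group. The mean sums of the basal and differentiation lists were thus lower on day 11 than on days 5 and 7. Whether this is linked to the changes of the Notch genes was not tested.

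Likeness to other genes was measured as Pearson r of log2 levels over the 27 libraries among 9536 genes. For Notch1 the 3 highest were Gfer (0.673), Ercc5 (0.664) and Zfp593 (0.649). Those for Jag1 were Adgre5 (0.948), Samd12 (0.943) and Pmepa1 (0.927), and those for Hes1 were Erp29 (0.906), ND3 (0.896) and Fam83g (0.895). Over the 9 group means their ranks were 18, 61 and 31 for Notch1, 7, 3 and 19 for Jag1 and 45, 40 and 32 for Hes1.

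The RBPJ core motif TGGGAA was sought on both strands in the 250 bases before each start of a promoter table of build GRCm38.p6. It was present in 7094 of 32851 promoters (21.6%). Of the 8 members matched to the table, with 9 entries, only Lfng held it, 135 bases before the start on the antisense strand and 108 bases before it on the sense strand, and 2.77% of all promoters held 2 or more. Hes1 and Hey1 had no entry. The 250 bases of Lfng (chr5:140607091-140607340, plus strand, motifs in capitals) and of Nrarp (chr2:25180508-25180757, plus strand) read as follows.

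Lfng: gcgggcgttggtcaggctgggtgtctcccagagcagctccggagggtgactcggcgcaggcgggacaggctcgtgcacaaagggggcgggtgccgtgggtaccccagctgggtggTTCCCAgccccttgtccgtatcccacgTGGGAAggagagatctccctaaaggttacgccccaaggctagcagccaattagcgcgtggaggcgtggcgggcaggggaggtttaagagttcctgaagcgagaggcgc

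Nrarp: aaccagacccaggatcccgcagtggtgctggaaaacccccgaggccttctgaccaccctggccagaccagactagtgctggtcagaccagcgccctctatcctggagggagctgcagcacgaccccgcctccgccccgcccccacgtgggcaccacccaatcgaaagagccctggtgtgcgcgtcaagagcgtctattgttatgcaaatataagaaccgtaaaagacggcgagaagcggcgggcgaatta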

How the data were processed

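RNA of mTGOs had been sequenced as Smart3SEQ libraries, which read the 3′ ends of polyadenylated transcripts, in 27 libraries of 9 day and dose groups. The authors deposited estimated counts per gene symbol, without normalization, for 50559 genes, 15491 of which had no counts; 56.3% of nonzero values were exact whole numbers. The submitters' notes name STAR, edgeR and GRCm39 without versions. Library totals lay between 2528866 and 5723150 counts, and the detection limit of 3 counts per library equals 0.524 to 1.19 CPM, which covers counting error only.

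Labels number mice 1 to 3, the series design speaks of 4 mice, and the columns carry the cultures mTG11, mTG12 and mTG14. Columns were assigned to groups by day and dose. Cultures, from the identifier in the columns, were paired only in the counts of cultures and in the fits with the culture as a block. The main fits had no term for the culture and treated all libraries as independent. After group means were removed, libraries of the same culture had a mean correlation of 0.274 over all groups. The lowest same-culture value was 0.0674 over all groups and 0.120 within a comparison. Libraries of different cultures averaged -0.137. That value follows from the same-culture value, because deviations from a group mean cancel out within the group, and it is no separate support for the pairing. As the labels describe separate mice, p-values are statements about the spread between cultures. Replicates of a group differed by at least 3.39 chi-square per degree of freedom in 27 pairs, so none was taken as a copy.

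The design assumed counts, and the estimated counts were rounded to whole numbers. CPM used library totals. Groups were compared with edgeR 4.0.16 (quasi-likelihood, TMM, genes with a total of 10 or more counts in the fitted libraries, Benjamini-Hochberg over all genes tested, threshold 0.05) in R 4.3.3; all adjusted p-values are from edgeR unless DESeq2 is named. Day comparisons at 0 Gy used 9 libraries, dose comparisons and dose trends the 12 libraries of a day, and comparisons of days in irradiated mTGOs and the interaction the 24 libraries of days 7 and 11. Alternatives were DESeq2 1.42.0, no TMM factors, no filter, at least 30 counts, the culture as a block, only the compared groups, all 27 libraries in 1 fit, a fibroblast score as covariate, unrounded counts, and leaving out each library in turn. The edgeR and DESeq2 fits were tested on simulated data. Tables and figures were made with Python 3.11.15, pandas 2.3.3 and matplotlib 3.10.9.

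Named genes were the 10 members in each comparison, other pathway genes from those called in day 11 against day 5 or in 7 Gy against 0 Gy on either day, up to 4 genes of each context list, and the 3 genes most like the member with the highest mean level among receptors, ligands and targets (at least 10 CPM on average, pseudocount 1). Members and lists were chosen with earlier results of these data known. The lists cover other pathway genes, basal and differentiated epithelium and proliferation, and markers of thyroid follicular cells, epithelium, basal epithelium, fibroblasts, mural cells, endothelium, immune cells and multiciliated cells. Of the basal markers, Krt5, Krt14, Krt15 and Trp63 are also in the basal epithelium list. Gene coordinates come from the GENCODE annotation of GRCm39 and promoter sequences from a RefSeq table of GRCm38.p6.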

Additional observations from a re-analysis of the deposited data

Results flagged for a closer look

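An interaction test of dose and day (edgeR) called 2 of the 44 pathway genes tested outside the 10 members, where 3.02% of all genes were called. For Dlk2 the difference was 1.99 (log2, SE 0.33, adjusted p 0.000782). Its group means were 19.6 CPM at 0 Gy and 6.77 CPM at 7 Gy on day 7, and 13.2 CPM at 0 Gy and 18.2 CPM at 7 Gy on day 11. It stayed past the threshold without any 1 of the 12 libraries. For Neurl1b the difference was 2.71 (SE 0.73, adjusted p 0.0404), with means of 11.7 and 3.71 CPM on day 7 and 3.35 and 7.08 CPM on day 11. That call was lost without the 0 Gy libraries day 11 mTG12 (0.0999), day 11 mTG14 (0.0937), day 7 mTG11 (0.15) or day 7 mTG14 (0.0536), or without the 7 Gy libraries day 11 mTG11 (0.0772), day 11 mTG12 (0.0843), day 7 mTG11 (0.0726) or day 7 mTG12 (0.106). The cause was not tested.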

How the results depend on the processing

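For each of 10 genes, calls and directions were recomputed under 9 alternatives in 13 comparisons and under 7 in the 2 dose trends, and no called direction reversed. The count of members called was 1 in 2 Gy against 0 Gy at day 7, 3 in 4 Gy against 0 Gy at day 7, 1 in 7 Gy against 0 Gy at day 11 and 1 in the interaction without a filter on low counts. Over all genes, fits without the filter called 404, 1263, 1205 and 1234 genes in these comparisons. With the filter the numbers were 24, 315, 302 and 663. With DESeq2 the count of members was 2 in 4 Gy against 0 Gy at day 7 and 1 in the interaction, and without TMM factors 2 in 4 Gy at day 7. With all 27 libraries in 1 fit it was 3 in day 11 against day 5 and 0 in 4 Gy at day 7. With the fibroblast score as a covariate it was 2 in day 11 against day 5, 2 in 4 Gy at day 7 and 1 in the interaction. With only the compared groups it was 2 in day 11 against day 7 at 7 Gy and 1 in the interaction. For all of these fits except those without the filter, the numbers of all genes called are not given here. Whether the counts of members moved with those of all genes can therefore not be told. The cause was not tested.

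With the culture as a replicate block the count was 3 in 4 Gy against 0 Gy at day 7, 1 in 7 Gy against 0 Gy at day 11, 1 in the dose trend at day 11 and 1 in the interaction, and it rose by 1 to 3 in 7 Gy against 0 Gy at day 7, 3 in the dose trend at day 7 and 5 in day 11 against day 7 at 7 Gy. Over all genes the block called 1009, 1297, 1352, 1156, 2193, 2303 and 3766 in these comparisons, in the order given. Without it the numbers were 315, 302, 499, 663, 1345, 1667 and 2701. Among members the block gained 8 calls of 150, each given beside its result, and changed no other call. The cause was not tested.

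Leaving out 1 library at a time, the count ran from 2 to 4 in day 7 against day 5, from 3 to 5 in day 11 against day 5, from 0 to 1 in 4 Gy against 0 Gy at day 7, from 2 to 4 in day 11 against day 7 at 7 Gy and from 0 to 1 in the interaction. Over 1080 such values 30 calls were lost and 7 gained. The numbers of all genes called in the fits without 1 library are not given here. Of 150 gene results per alternative, DESeq2 lost 2 and gained 3, no TMM factors lost 4 and gained 3, no filter lost 1 and gained 10, at least 30 counts gained 1, and the fibroblast score lost 4 and gained 3. Of 130 each, only the compared groups and all 27 libraries lost 4 and gained 1. Unrounded counts, chosen after seeing the data, changed 0 of 150. Genes with few counts, such as Hey1 and Dll1, have the widest standard errors here, which limits the changes that can be called.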
